A study of Mus musculus with 16 samples.

Results

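The genes described here are the WNT ligands, their frizzled and LRP receptors, the secreted frizzled-related proteins (SFRPs) and dickkopfs that restrain them, and the intracellular members of the β-catenin pathway. They were chosen by name, though with earlier results of these data known: symbols beginning with Wnt, Fzd, Sfrp or Dkk and a digit, plus Ctnnb1, Axin1, Axin2, Lef1, Tcf7, Tcf7l1, Tcf7l2, Lrp5, Lrp6, Nkd1, Nkd2, Apc and Gsk3b. This gave 51 of the 55492 genes in the table, of which 19 were ligands, 11 carried a frizzled name, 4 were SFRPs, 4 dickkopfs, 2 co-receptors, 4 parts of the destruction complex, 1 β-catenin, 4 TCF/LEF factors and 2 naked cuticle homologs. RNA came from the left ventricle of male C57BL/6 mice aged 8 to 12 weeks, in 16 libraries depleted of ribosomal RNA. PKM2fl/fl mice, which carry loxP sites in Pkm, were the controls, and PKM2-/- mice lacked the PKM2-specific exon in every tissue after germline deletion with a CMV-driven Cre that was then bred out. Each genotype was sampled without surgery (baseline, 2 libraries), 3 days after a sham operation (3 libraries) and 3 days after myocardial infarction (MI, 3 libraries) made by permanent ligation of the left anterior descending artery, and each library came from its own mouse. The measurement was the normalized count, which is the number of reads assigned to a gene divided by a size factor for its library.

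WNT proteins are secreted lipid-modified ligands that bind a frizzled receptor together with LRP5 or LRP6. In the canonical branch this holds back the destruction complex of APC, the axins and GSK3β, so that β-catenin escapes degradation, enters the nucleus and joins TCF/LEF factors on target genes, among them Axin2. SFRPs and dickkopfs act outside the cell, the former by binding WNTs and the latter mostly by binding LRP5 and LRP6. WNT signalling guides heart development, is low in the healthy adult ventricle and is known to be engaged after infarction. PKM2 has been reported, in several cell types and in cardiomyocytes among them, as a nuclear coactivator of β-catenin, which is why the genotype comparison bears on these genes.

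Libraries held 20623769 to 71855101 reads assigned to genes. Between 15.8% and 46.1% of those reads lay in 5 loci that collect ribosomal RNA reads, and the share was uneven across groups, at 17.3% to 22.1% in PKM2fl/fl and 39.8% to 43.9% in PKM2-/- baseline hearts. Pkm itself stood at 7779 to 9602 normalized counts in PKM2fl/fl and 11710 to 14242 in PKM2-/- hearts without infarction and at 9576 to 12076 and 10120 to 16113 after it, a gene-level sum over both isoforms that does not check the deleted exon. Heart muscle was the main source of marker RNA: 7 cardiomyocyte markers summed to 825648 to 1025600 normalized counts in the 10 libraries without infarction. After MI all 7 fell in both genotypes, and the 3 MI libraries of each held sums of 145857 to 372272 in PKM2fl/fl and 163807 to 216781 in PKM2-/- hearts. In whole ventricle, fewer cells of a type and less RNA per cell cannot be told apart.

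Of the 51 genes, 34 had a mean of at least 10 normalized counts over the 16 libraries and entered the test, as did 20576 genes in all. Tested members comprised 8 ligands, 8 frizzled receptors, 3 SFRPs, 2 dickkopfs and every intracellular member and co-receptor. The 17 others averaged 0.128 to 8.27 normalized counts and none had more than 28 reads in any library, although none was at 0 in every library. They were Wnt1, Wnt3, Wnt3a, Wnt6, Wnt7a, Wnt7b, Wnt8a, Wnt8b, Wnt10a, Wnt10b, Wnt16, Fzd6, Fzd10, the long noncoding RNA Fzd10os, Sfrp4, Dkk1 and Dkk4. Classical activators of the β-catenin branch such as Wnt1 and Wnt3a were thus at the edge of detection in all 6 groups, with at most 4 reads for Wnt1 and 2 for Wnt3a in a library. A gene with no read in a library could still have had 3 reads' worth there, the limit that a count of 0 allows for counting error.

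To compare levels between genes, normalized counts were divided by the length of each gene's exons in the GENCODE M39 annotation. On this per-kilobase scale Wnt5b, usually assigned to the β-catenin-independent branch, was the highest ligand in all 16 libraries, at 88.2 to 128 normalized counts per kb. Of its exon bases 21.8% also lie in exons of Fbxl14 on the other strand, from which reads cannot be separated here, since the library kit named in the methods does not mark strand. Wnt9a came next at 19.1 to 45.4 per kb and lay above Wnt2b in 14 of 16 libraries. Wnt2b, Wnt11 and Wnt5a could not be ordered: Wnt2b exceeded Wnt11 in 8 libraries and Wnt11 exceeded Wnt5a in 7. Wnt9b, Wnt4 and Wnt2 followed, and Wnt2 reached no more than 2.95 per kb.

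Fzd4, the receptor also used by the non-WNT ligand norrin in vessels, was the highest frizzled gene in all 16 libraries at 184 to 400.1 normalized counts per kb. Fzd1 was second in all 16, at 39.2 to 125 per kb. Fzd7, Fzd8 and Fzd2 were close together, since Fzd7 exceeded Fzd8 in 11 libraries and Fzd8 exceeded Fzd2 in 9. Within the 8 tested frizzled genes Fzd4 made up 59.7% ± 6.20 (SD, n = 3) of the per-kilobase total after sham and 40.3% ± 0.364 (SD, n = 3) after MI in PKM2fl/fl hearts. The corresponding shares in PKM2-/- hearts were 65.3% ± 4.86 and 48.1% ± 3.64 (SD, n = 3 each). Fzd2 moved the other way, from 3.96% ± 1.00 to 13.3% ± 1.20 in PKM2fl/fl and from 4.77% ± 0.966 to 10.3% ± 1.78 in PKM2-/- hearts, with no overlap between sham and MI libraries in either genotype.

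**Figure D1:**
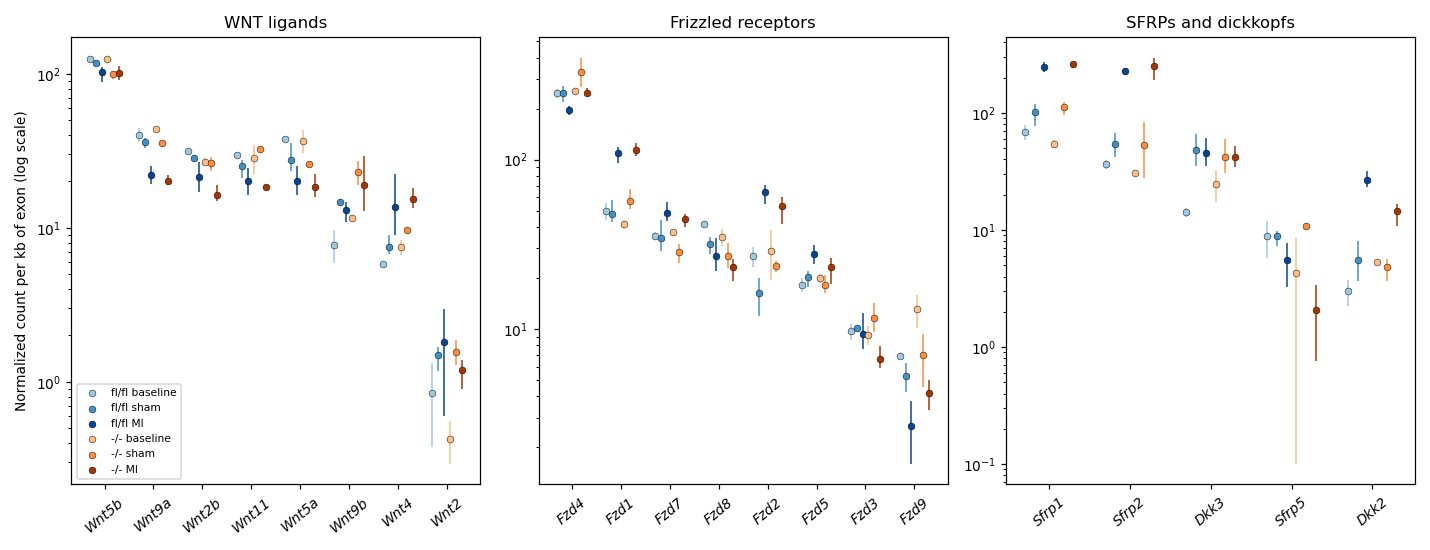
Normalized counts per kb of exon on a log axis for the tested ligands (left), frizzled receptors (middle) and SFRPs with dickkopfs (right); points are group means and vertical lines run from the lowest to the highest library, with a library at 0 drawn at the lower end of the axis. Wnt5b and Fzd4 stand above the other members of their families in every group, and Sfrp1, Sfrp2 and Dkk2 are higher in both MI groups than in the other 4.

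The first comparison asked what infarction did to these genes, with sham-operated hearts of the same genotype as the reference. In PKM2fl/fl hearts 10 of the 34 tested members were higher and 5 lower after MI at an adjusted p under 0.05 (limma, Benjamini-Hochberg over 20576 genes), against a background of 24.8% of all tested genes higher and 25.3% lower. The members' shares were 29.4% and 14.7%. In PKM2-/- hearts 9 were higher and 9 lower, or 26.5% each, with backgrounds of 28.7% and 28.1%. With a 2-fold change required as well, 5 members remained in PKM2fl/fl (background 23.5%) and 7 in PKM2-/- hearts (background 28.8%). These shares sit near or under those of all genes. The median log2 fold change of the 34 members was -0.0010 in PKM2fl/fl and -0.05 in PKM2-/- hearts, beside -0.0025 and 0.010 over all tested genes. When libraries were scaled by their total counts, the PKM2-/- split of 9 higher and 9 lower became 12 and 2. Under that scaling the median log2 fold change of all tested genes in the same comparison was 0.52. Tested genes as a whole thus shifted to higher as well. The share of all genes called under that scaling is not given here, so the tilt cannot be read as particular to the members.

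Calls in the 2 genotypes overlapped. Higher in both were 8 members (23.5% of 34, background 21.7%), namely Sfrp1, Sfrp2, Dkk2, Fzd1, Fzd2, Fzd7, Axin1 and Tcf7, and lower in both were 5 (14.7% of 34, background 21.6%), namely Wnt9a, Wnt2b, Fzd4, Lrp5 and Axin2. The 13 shared members made up 86.7% of the PKM2fl/fl list and 72.2% of the PKM2-/- list, and for all genes the shares were 86.6% and 76.4%. No member was called in opposite directions.

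**Figure D2:**
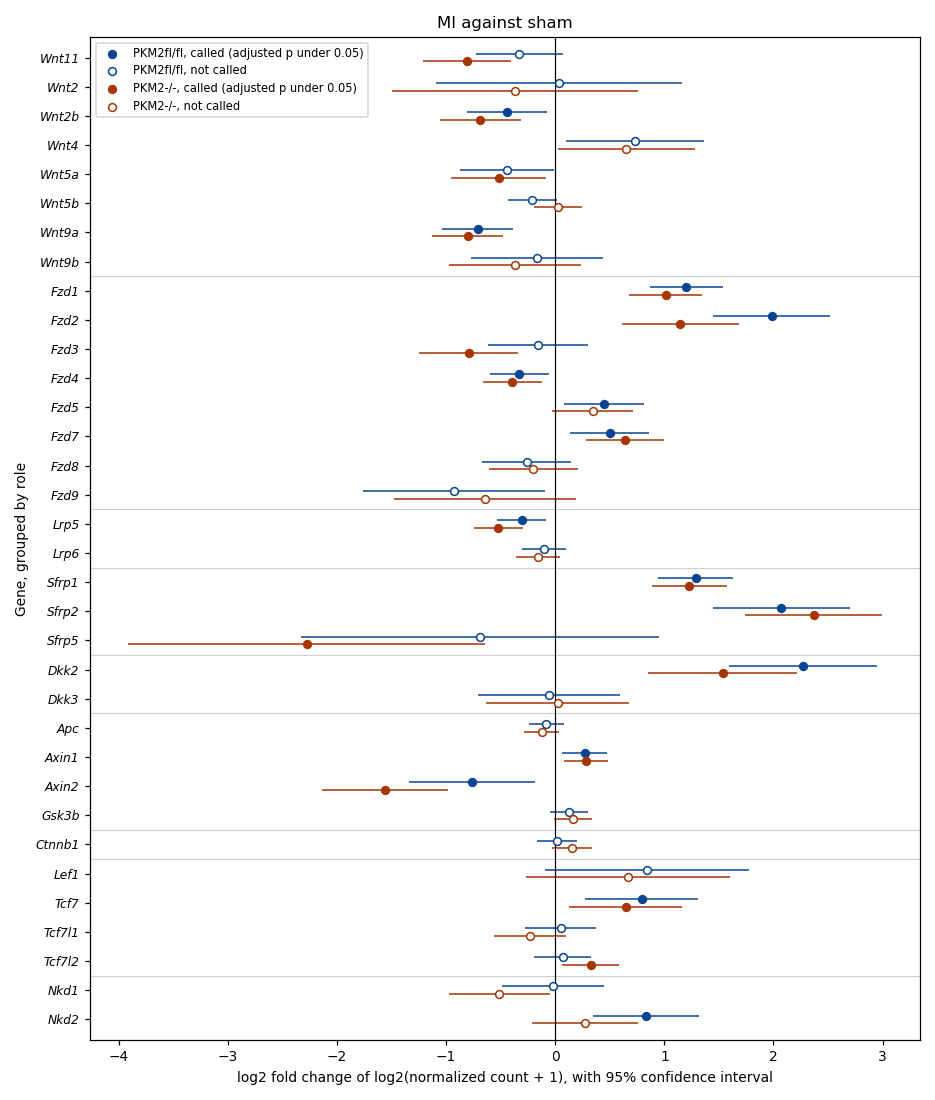
Log2 fold change from sham to MI for the 34 tested members, grouped by role, with 95% confidence intervals; blue marks PKM2fl/fl and brown PKM2-/- hearts, and filled points are called at an adjusted p under 0.05. Sfrp1, Sfrp2, Dkk2, Fzd1 and Fzd2 lie to the right of 0 and Wnt9a and Axin2 to the left in both genotypes.

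No ligand was called higher after MI with limma, although edgeR and DESeq2 on the recovered reads each called Wnt4 higher in PKM2fl/fl hearts. Wnt9a, a ligand known from heart valve and joint development, held 128, 147 and 150.5 normalized counts in the 3 PKM2fl/fl sham libraries and 98.9, 85.7 and 75.0 in the 3 MI libraries. The PKM2-/- values were 143, 131 and 141 after sham and 74.6, 85.7 and 76.5 after MI. Every MI library was thus below every sham library in both genotypes, and the fall was called in each (log2 fold change -0.71, SE 0.15, adjusted p = 0.00127 in PKM2fl/fl; log2 fold change -0.80, SE 0.15, adjusted p = 0.000375 in PKM2-/-). Wnt2b, a ligand of the β-catenin branch, went from 159, 164 and 148 to 94.3, 147 and 109.7 in PKM2fl/fl and from 148, 128 and 158 to 82.7, 82.6 and 104 in PKM2-/- hearts. Its sham and MI libraries did not overlap in either genotype. The PKM2-/- fall was -0.68 ± 0.17 SE, adjusted p = 0.00329. In PKM2fl/fl hearts Wnt2b passed narrowly (log2 fold change -0.44, SE 0.17, adjusted p = 0.0438) and lost its call under 17 of 26 alternatives.

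Wnt11, a ligand of the β-catenin-independent branch needed for heart formation, differed between the genotypes in its call. PKM2-/- libraries held 159, 163 and 169 normalized counts after sham and 89.2, 95.3 and 95.2 after MI, without overlap (log2 fold change -0.81, SE 0.19, adjusted p = 0.00184). PKM2fl/fl libraries held 106, 138 and 140.2 after sham and 124, 101 and 82.3 after MI, which overlapped (log2 fold change -0.33, SE 0.19, adjusted p = 0.162). The difference between these effects was -0.48 ± 0.27 SE, adjusted p = 0.668, so the genotypes were not shown to differ. Wnt5a was lower in PKM2-/- hearts (log2 fold change -0.52, SE 0.20, adjusted p = 0.0392) but not called in PKM2fl/fl (log2 fold change -0.44, SE 0.20, adjusted p = 0.083). Without any one of the PKM2-/- sham replicates 1, 2 and 3 or the MI replicates 1 and 2 the Wnt5a call was lost, at adjusted p = 0.0734, 0.0913, 0.0665, 0.134 and 0.107. Wnt4, a ligand of kidney and gonad development, held 45.2, 34.9 and 33.8 after sham and 49.5, 45.0 and 113 after MI in PKM2fl/fl hearts, which overlapped (log2 fold change 0.73, SE 0.30, adjusted p = 0.0507). PKM2-/- libraries held 48.2, 49.6 and 47.5 and 68.1, 73.0 and 90.9, without overlap (log2 fold change 0.65, SE 0.30, adjusted p = 0.072). It narrowly missed the threshold in both and was called higher under 5 of 26 alternatives in PKM2fl/fl hearts, among them those without MI replicate 1 or 2, and under 4 of 26 in PKM2-/- hearts, among them that without PKM2fl/fl MI replicate 3. Wnt2, Wnt5b and Wnt9b were not called.

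Among receptors, Fzd1 and Fzd2 rose. Fzd1 stood at 180.4, 241 and 182 normalized counts after sham and 496, 403 and 486 after MI in PKM2fl/fl hearts, and at 281, 217 and 215 and 440.2, 466 and 527 in PKM2-/- hearts. All 6 MI libraries exceeded all 6 sham libraries, a change of 2.30-fold in PKM2fl/fl (log2 fold change 1.20, SE 0.16, adjusted p = 1.91e-05) and 2.02-fold in PKM2-/- (log2 fold change 1.01, SE 0.16, adjusted p = 5.95e-05). Fzd2 went from 43.5, 72.9 and 63.2 to 201, 246 and 259.7 in PKM2fl/fl (log2 fold change 1.98, SE 0.25, adjusted p = 1.56e-05). PKM2-/- libraries went from 86.8, 79.7 and 92.8 to 153, 222 and 209 (log2 fold change 1.15, SE 0.25, adjusted p = 0.0012). Sham and MI libraries were again apart in both. The genotype difference in the Fzd2 response was -0.84 ± 0.36 SE, adjusted p = 0.572.

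Fzd7 rose less, by 0.50 ± 0.17 SE, adjusted p = 0.0223 in PKM2fl/fl and 0.64 ± 0.17 SE, adjusted p = 0.00445 in PKM2-/- hearts. Its PKM2-/- libraries were 172, 144 and 187 after sham and 233, 267 and 281 after MI, without overlap. In PKM2fl/fl hearts the sham values of 169, 258 and 179 overlapped the MI values of 261, 255 and 330.2. Of Fzd7 exon bases 12.0% also lie in exons of genes on the other strand. The PKM2fl/fl call was lost without sham replicate 1 (0.38 with adjusted p = 0.107), sham replicate 3 (0.42 with adjusted p = 0.0852) or MI replicate 3 (0.38 with adjusted p = 0.0998). Fzd3, a receptor of planar cell polarity and axon guidance, was lower in PKM2-/- MI hearts, with 148, 189 and 126 after sham and 81.9, 105 and 77.9 after MI (log2 fold change -0.79, SE 0.21, adjusted p = 0.0052). PKM2fl/fl libraries held 133, 134 and 138 after sham and 100.5, 106 and 166 after MI, with 1 MI library above and 2 below the sham range (adjusted p = 0.565).

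Fzd4, the most abundant receptor, was lower after MI, with log2 fold changes of -0.33 ± 0.13 SE, adjusted p = 0.0428 in PKM2fl/fl and -0.39 ± 0.13 SE, adjusted p = 0.0158 in PKM2-/- hearts. Its values after MI were 1263, 1329.9 and 1425 in PKM2fl/fl and 1811, 1624 and 1675 in PKM2-/- hearts. The PKM2fl/fl call was lost under 12 of 26 alternatives, and the PKM2-/- call was lost without sham replicate 2 (-0.25 with adjusted p = 0.0938) or MI replicate 2 (-0.36 with adjusted p = 0.0546). Fzd5 was called higher in PKM2fl/fl only (log2 fold change 0.45, SE 0.17, adjusted p = 0.0427; in PKM2-/- adjusted p = 0.103) and lost that call under 9 of 26 alternatives. Of Fzd5 exon bases 18.1% also lie in exons of Gm38058 on the other strand. Fzd8 and Fzd9 were not called. Of the co-receptors, Lrp5 fell in both genotypes. It went from 2143, 2110.5 and 2205 to 1869, 1890.3 and 1487 in PKM2fl/fl (log2 fold change -0.31, SE 0.10, adjusted p = 0.0226) and from 2598, 2237 and 2242 to 1719, 1546 and 1659 in PKM2-/- hearts (log2 fold change -0.52, SE 0.10, adjusted p = 0.000563). No MI library reached the sham range. Without sham replicate 1, sham replicate 3 or MI replicate 3 the PKM2fl/fl adjusted p was 0.0522, 0.0653 and 0.105. Lrp6 was not called (-0.10 and -0.16, adjusted p = 0.387 and 0.16).

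**Figure D3:**
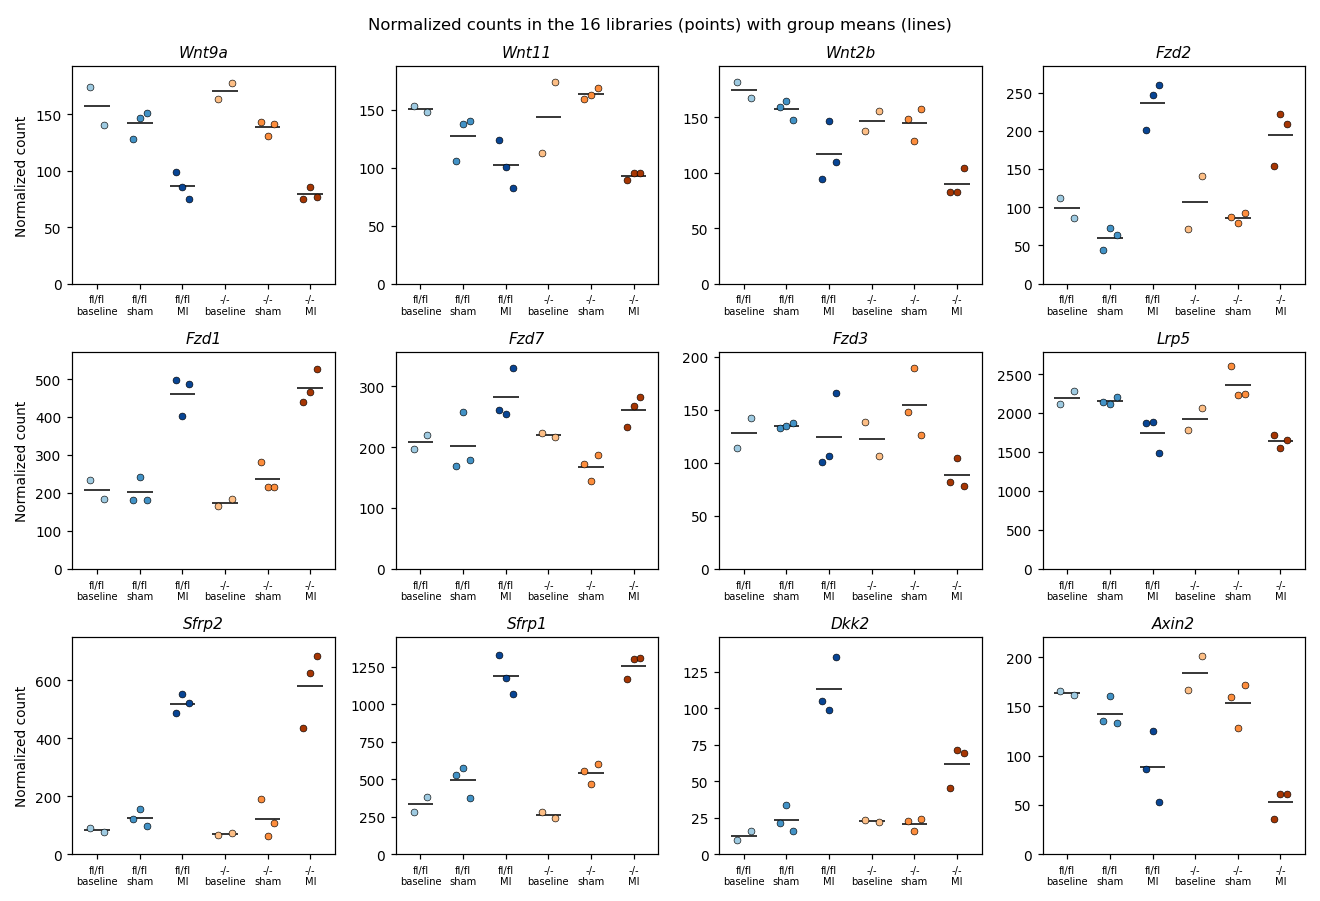
Normalized counts of the 12 members with the smallest adjusted p over both MI comparisons; points are the 16 libraries, horizontal lines the group means, and each vertical axis starts at 0. Sfrp1, Sfrp2, Dkk2, Fzd1 and Fzd2 are high in the 6 MI libraries, and in those 6 Wnt9a and Axin2 lie below all 10 other libraries.

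The largest rises were in secreted WNT inhibitors and in Fzd2. In the RefSeq annotation of GRCm38.p6, the assembly also called mm10, the positions of the genes that rose most were Sfrp1 at chr8:23411383-23449632, Sfrp2 at chr3:83765750-83774314, Dkk2 at chr3:132085266-132180304, Fzd1 at chr5:4753839-4758216 and Fzd2 at chr11:102604431-102608058. Sfrp2, made by cardiac fibroblasts and known to affect collagen processing as well as WNT binding, stood at 123, 155 and 96.6 normalized counts after sham and 485, 552 and 521 after MI in PKM2fl/fl hearts. PKM2-/- libraries held 191, 64.0 and 108 after sham and 436, 625 and 682 after MI. The lowest MI library was more than any sham library in each genotype, and the change was 4.21-fold (log2 fold change 2.07, SE 0.30, adjusted p = 4.13e-05) and 5.16-fold (log2 fold change 2.37, SE 0.30, adjusted p = 8.34e-06). Of Sfrp2's exon bases 21.0% also lie in exons of Gm26771 on the other strand, whose reads likewise cannot be told apart from Sfrp2's. Sfrp1 rose from 528, 574 and 376 to 1325, 1178 and 1071 in PKM2fl/fl (log2 fold change 1.29, SE 0.16, adjusted p = 1.32e-05). Its PKM2-/- values were 551, 466 and 599.8 after sham and 1167, 1299 and 1307 after MI (log2 fold change 1.23, SE 0.16, adjusted p = 1.29e-05). Both genotypes reached a similar level, with all 6 MI libraries between 1071 and 1325.

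Sfrp5 went the other way and only at low counts. PKM2-/- libraries held 19.3, 20.9 and 21.6 normalized counts after sham and 6.49, 3.81 and 1.44 after MI (log2 fold change -2.28, SE 0.77, adjusted p = 0.0194). The call was lost without MI replicate 3 (-1.85 with adjusted p = 0.0827) or with a pseudocount of 0.1 (adjusted p = 0.0909). PKM2fl/fl libraries held 18.2, 18.5 and 13.7 and 6.18, 10.7 and 14.6, which was not called (adjusted p = 0.48). Dkk2, which acts on LRP5 and LRP6 and depending on context inhibits or activates the pathway, rose from 21.1, 33.9 and 15.7 to 105, 98.6 and 135 in PKM2fl/fl, or 4.82-fold (log2 fold change 2.27, SE 0.32, adjusted p = 3.60e-05). The PKM2-/- rise was from 22.5, 15.7 and 23.7 to 45.4, 71.1 and 69.2, or 2.89-fold (log2 fold change 1.53, SE 0.32, adjusted p = 0.000754). The 3 PKM2fl/fl MI libraries were all above the 3 PKM2-/- MI libraries, and all 6 were above every sham library. Dkk3, a divergent family member, was not called after MI (95% confidence interval -0.71 to 0.60 in PKM2fl/fl and -0.63 to 0.68 in PKM2-/-).

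Markers of several cell types moved over the same comparisons as these receptors and inhibitors. Among all tested genes 24.8% and 28.7% were higher and 25.3% and 28.1% lower in PKM2fl/fl and PKM2-/- hearts. Of 7 fibroblast markers, 5 were higher and 1, Dcn, lower after MI in each genotype, and their summed level went from between 24281 and 45617 after sham to between 162506 and 176380 after MI in PKM2fl/fl and from between 27837 and 45316 to between 141915 and 196415 in PKM2-/- hearts. The quiescent fibroblast marker Tcf21 was not called (adjusted p = 0.322 and 0.145), and Postn, a marker of activated fibroblasts, rose by 3.82 and 3.59 on the log2 scale. All 6 macrophage and monocyte markers and all 4 markers of dividing cells were higher in both genotypes. Their part in the changes of the WNT genes was not tested. Of 5 endothelial markers 2 were higher and 1 lower in PKM2fl/fl and 1 higher and 2 lower in PKM2-/- hearts, and of 5 mural markers 3 and 2 were higher and 1 and 2 lower. For neutrophils 2 of 4 tested were higher in both genotypes, for the epicardium 0 and 4 of 5 were higher, and for Schwann cells 3 and 2 of 3 tested were lower. Of 4 atrial markers 1, Nppa, was higher in both, 0 of 5 erythroid markers and 0 of 1 tested T cell marker were called in either genotype, and no adipocyte marker passed the filter. Of the 5 ribosomal RNA loci 3 were called higher after MI in PKM2fl/fl and 0 in PKM2-/- hearts.

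Axin2, the feedback scaffold commonly read as a reporter of β-catenin activity, fell. PKM2fl/fl libraries held 135, 160.1 and 133 normalized counts after sham and 86.6, 125 and 53.0 after MI (log2 fold change -0.77, SE 0.27, adjusted p = 0.0283). PKM2-/- libraries held 159, 128 and 172 after sham and 35.7, 61.0 and 60.6 after MI, a change to 0.340 of the sham level (log2 fold change -1.56, SE 0.27, adjusted p = 0.000169). Every MI library was below every sham library of its genotype, and the PKM2-/- MI libraries varied less than the PKM2fl/fl ones. The PKM2fl/fl call was lost without sham replicate 1 (-0.80 with adjusted p = 0.0527), sham replicate 2 (-0.68 with adjusted p = 0.0904) or MI replicate 3 (-0.44 with adjusted p = 0.158). The related scaffold Axin1 was higher by 0.27 and 0.28 (adjusted p = 0.0274 and 0.0183), calls that were lost under 7 and 4 of 26 alternatives.

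Neither β-catenin nor its kinase GSK3β was called with limma. Ctnnb1, encoding β-catenin, stood at 7917, 7624 and 7114 normalized counts after sham and 7194, 7944 and 7767 after MI in PKM2fl/fl hearts, with a 95% confidence interval for the log2 fold change of -0.17 to 0.20. For PKM2-/- libraries the values were 6779, 6802 and 7034 and 7907, 7402 and 7609, with an interval of -0.029 to 0.33. These measure RNA, whereas the pathway acts on the amount and place of the protein. Of Ctnnb1 exon bases 11.7% also lie in exons of other genes. Gsk3b, the kinase that marks β-catenin for destruction, was 3411, 3526 and 3503 and then 3571, 3692 and 4148 in PKM2fl/fl (log2 fold change 0.13, SE 0.082, adjusted p = 0.22). Its PKM2-/- values were 3275, 3736 and 3407 and 3860.3, 3909 and 3907 (log2 fold change 0.17, SE 0.082, adjusted p = 0.0965). The 3 MI libraries lay above the 3 sham libraries in each genotype, and Gsk3b was called higher in PKM2-/- hearts with array quality weights (0.19 with adjusted p = 0.0259), without PKM2fl/fl MI replicate 3 (0.17 with adjusted p = 0.0485) and without PKM2-/- sham replicate 2 (0.22 with adjusted p = 0.0467). Apc was not called either (-0.081 and -0.12, adjusted p = 0.39 and 0.177).

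Of the TCF/LEF factors, Tcf7 was called higher in both genotypes, from 44.1, 29.8 and 39.2 to 74.2, 51.4 and 72.2 in PKM2fl/fl (log2 fold change 0.79, SE 0.24, adjusted p = 0.0133) and from 49.8, 39.2 and 45.3 to 56.7, 69.9 and 88.0 in PKM2-/- hearts (log2 fold change 0.65, SE 0.24, adjusted p = 0.0328). Sham and MI libraries did not overlap in either, but the PKM2fl/fl call was lost without sham replicate 2 (0.63 with adjusted p = 0.0651) and the PKM2-/- call under 7 of 26 alternatives. Lef1, of whose exon bases 16.3% are shared with the antisense gene Lef1os1, varied widely between libraries, at 15.3, 19.5 and 32.8 after sham and 27.8, 43.9 and 49.4 after MI in PKM2fl/fl and at 38.6, 41.8 and 15.1 and 38.9, 65.4 and 40.4 in PKM2-/- hearts. The groups overlapped and neither change was called (adjusted p = 0.123 and 0.207), except in PKM2-/- hearts under total count scaling (adjusted p = 0.0461). Tcf7l2, one of the 2 abundant factors beside Tcf7l1, was called higher in PKM2-/- hearts alone (log2 fold change 0.32, SE 0.12, adjusted p = 0.0356) and lost the call under 6 of 26 alternatives. Tcf7l1 was called in neither genotype. Nkd2, which restrains dishevelled, was higher in PKM2fl/fl hearts, from 83.4, 59.5 and 58.8 to 91.2, 150.0 and 123 (log2 fold change 0.83, SE 0.23, adjusted p = 0.00661), and was not called in PKM2-/- hearts (log2 fold change 0.27, SE 0.23, adjusted p = 0.332). Its relative Nkd1 was not called in either genotype.

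The start regions of 34 of the 51 genes were found in RefSeq (GRCm38.p6), in 43 windows from 250 bases before to 50 bases after an annotated start. They were searched on both strands for CTTTGAT and CTTTGAA, 2 common spellings of the TCF/LEF binding motif. CTTTGAT was present in 3.73% of all 32851 windows and in 2 of the 43 member windows, one of Wnt11 and one of Wnt5b. CTTTGAA was present in 5.14% of all windows and in 1 member window, that of Dkk1, which had at most 2 reads in a library. The Axin2 window held neither. That window lies inside the annotated gene, which begins further upstream at chr11:108917828, and no window before that position was searched. The 250 bases upstream of 3 starts are shown because Axin2 fell after MI in both genotypes, Wnt11 in PKM2-/- hearts, and Wnt5b was the most abundant ligand. Capitals mark CTTTGAT, which lies on the reverse strand in Wnt11 and on the gene's own strand in Wnt5b, with its first printed base 51 and 71 bases before the start. They lie at chr11:108920099-108920348 (plus strand, Axin2), chr7:98834862-98835111 (plus strand, Wnt11) and chr6:119449387-119449636 (minus strand, Wnt5b), each before the first of the gene's exons for that start.
Axin2: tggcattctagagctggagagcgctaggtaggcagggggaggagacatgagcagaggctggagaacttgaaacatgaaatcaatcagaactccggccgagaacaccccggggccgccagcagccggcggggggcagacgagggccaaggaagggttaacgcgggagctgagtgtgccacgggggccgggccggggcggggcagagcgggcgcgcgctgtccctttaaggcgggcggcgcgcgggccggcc
Wnt11: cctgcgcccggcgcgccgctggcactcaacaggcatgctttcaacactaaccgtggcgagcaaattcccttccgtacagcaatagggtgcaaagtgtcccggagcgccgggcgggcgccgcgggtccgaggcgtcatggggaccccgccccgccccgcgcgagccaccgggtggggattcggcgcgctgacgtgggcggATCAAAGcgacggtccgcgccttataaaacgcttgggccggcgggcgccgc
Wnt5b: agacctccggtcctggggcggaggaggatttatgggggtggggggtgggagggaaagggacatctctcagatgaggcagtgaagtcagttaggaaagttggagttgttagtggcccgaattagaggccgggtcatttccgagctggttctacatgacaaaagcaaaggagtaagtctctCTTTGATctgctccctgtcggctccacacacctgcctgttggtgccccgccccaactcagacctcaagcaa
The Wnt11 and Wnt5b genes have other annotated starts without the motif in their windows. The Wnt5b window shown lies inside the annotated gene, which on the minus strand begins further upstream at chr6:119544824. The window closest to that position held 78.0% GC and 47 CG pairs and no motif. A match is a description of the letters and no evidence of binding, and its absence from a window says nothing of sites elsewhere. Windows of these genes were rich in CG, with a median GC content of 67.3% beside 52.7% for all windows and a median of 26 CG pairs beside 7. The Axin2 window held 70.0% GC and 31 CG pairs, and the Wnt5b window shown 55.0% and 7.

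The second set of comparisons asked whether loss of PKM2 changed these genes. No member was called between genotypes at baseline (limma, 0 of 34, background 0.00972%), after sham (0 of 34, background 0.00972%) or after MI (0 of 34, background 0.967%). edgeR and DESeq2 on the recovered reads also called 0 members in each. At an unadjusted p under 0.05 there were 2, 5 and 4 members, or 5.88%, 14.7% and 11.8%, beside 3.64%, 9.95% and 17.0% of all tested genes. With 2 libraries a group at baseline and 3 after surgery, a missed threshold does not show that the genotypes were alike. For Ctnnb1 the 95% confidence interval of the log2 difference (PKM2-/- minus PKM2fl/fl) was -0.31 to 0.13 at baseline, -0.32 to 0.047 after sham and -0.18 to 0.18 after MI. For Gsk3b the intervals were -0.12 to 0.31, -0.18 to 0.17 and -0.14 to 0.21. Lef1 was far less certain, with intervals of -0.51 to 1.77, -0.51 to 1.36 and -0.68 to 1.18.

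At baseline the smallest adjusted p was 1 for every member, and the 3 first by unadjusted p were Sfrp5, Dkk2 and Dkk3. Sfrp5 was 11.0 and 22.6 in PKM2fl/fl and 16.3 and 0 in PKM2-/- hearts, where 1 library had no read. Without that library, PKM2-/- baseline replicate 2, the log2 difference was 0.043, and without replicate 1 it was -4.07 with adjusted p = 0.0363. Dkk2 was 9.42 and 15.9 in PKM2fl/fl and 23.3 and 22.0 in PKM2-/- hearts (0.83 ± 0.39 SE, adjusted p = 1). Dkk3 was 105 and 88.2 and 119 and 222 (0.75 ± 0.38 SE, adjusted p = 1). Axin2 was 166 and 162 and 167 and 202, with a confidence interval of -0.55 to 0.87.

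After sham the first 3 were Fzd4, Wnt5b and Wnt9b. Fzd4 was 1852, 1501 and 1708 in PKM2fl/fl and 2217, 2741 and 1837 in PKM2-/- hearts (log2 fold change 0.41, SE 0.13, adjusted p = 0.253), with 1 PKM2-/- library inside the control range. Wnt5b was lower in all 3 PKM2-/- libraries, at 580.4, 588 and 531 against 679, 668 and 666 (log2 fold change -0.25, SE 0.10, adjusted p = 0.442). Wnt9b, a ligand of the developing heart valve and kidney, was higher in all 3, at 104, 123 and 86.3 against 66.4, 69.8 and 62.7 (log2 fold change 0.64, SE 0.28, adjusted p = 0.472). At baseline its 2 PKM2-/- libraries, at 53.6 and 51.3, were also above the 2 PKM2fl/fl ones at 26.7 and 43.8, whereas after MI the groups overlapped. Axin2 did not separate the genotypes after sham (confidence interval -0.48 to 0.67).

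After MI the first 3 were Dkk2, Fzd4 and Axin2. Dkk2 averaged 61.9 ± 14.3 (SD, n = 3) in PKM2-/- and 113 ± 19.6 (SD, n = 3) in PKM2fl/fl hearts (log2 fold change -0.87, SE 0.32, adjusted p = 0.18). Fzd4 averaged 1703 ± 96.7 (SD, n = 3) and 1339 ± 81.4 (SD, n = 3) (log2 fold change 0.35, SE 0.13, adjusted p = 0.183). Both pairs of groups were without overlap. Axin2 averaged 52.4 ± 14.5 (SD, n = 3) and 88.3 ± 36.2 (SD, n = 3) (log2 fold change -0.70, SE 0.27, adjusted p = 0.207), and PKM2fl/fl replicate 3 lay inside the PKM2-/- range. Without that library the Axin2 difference was -1.02 with adjusted p = 0.0155, the only loss of 1 library that produced a call in this comparison. Array quality weights, which count less the libraries that stray from their group, gave -0.78 with adjusted p = 0.0375.

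**Figure D4:**
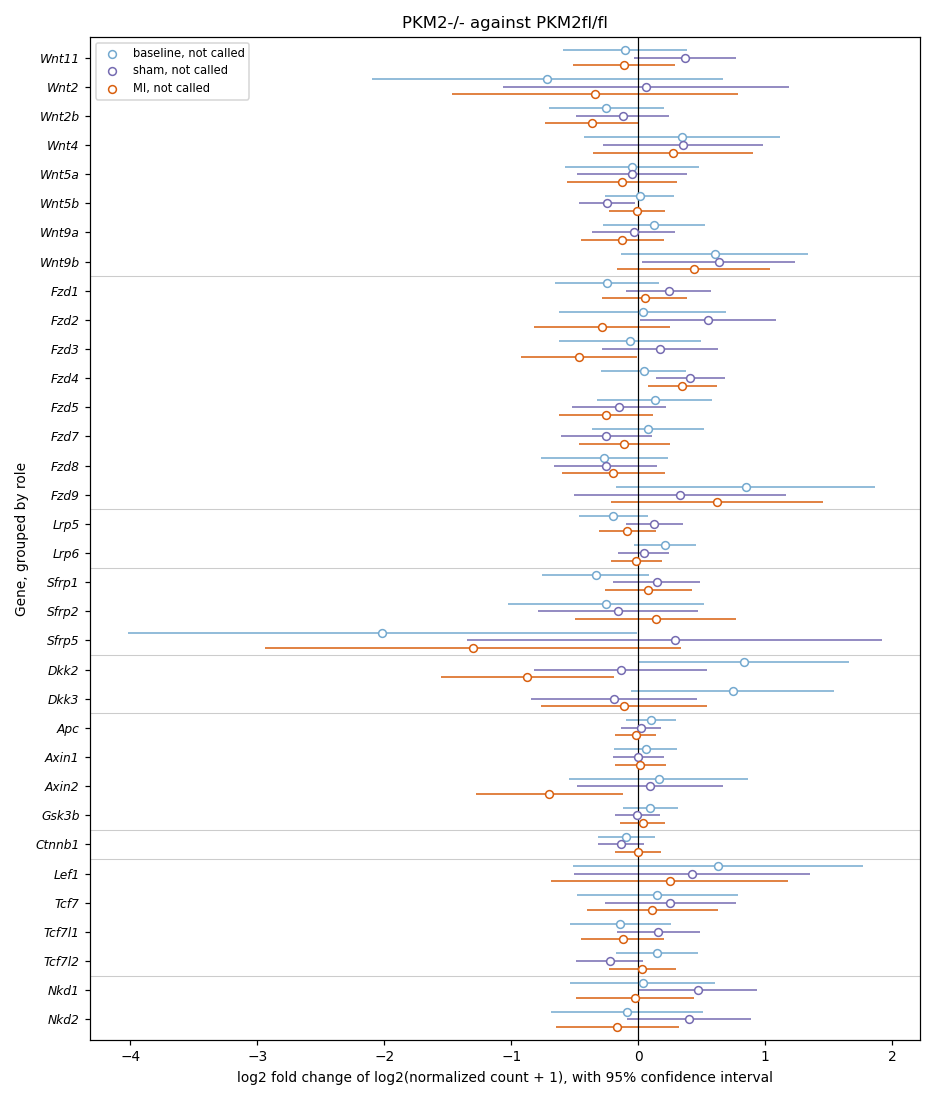
Log2 difference between PKM2-/- and PKM2fl/fl hearts for the 34 tested members, grouped by role, with 95% confidence intervals, at baseline (light blue), after sham (purple) and after MI (orange). All points are open because none passed an adjusted p of 0.05, and the intervals of Sfrp5, Lef1, Wnt2 and Fzd9 are the widest of the set.

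The test of whether MI acted differently in the 2 genotypes called 0 of 34 members (limma, background 0%), as did edgeR and DESeq2, and 1 member, Fzd2, had an unadjusted p under 0.05, beside 8.28% of all tested genes. The difference of log2 changes, PKM2-/- minus PKM2fl/fl, was -0.84 for Fzd2 (95% confidence interval -1.60 to -0.074, adjusted p = 0.572). Fzd3 had -0.64 (interval -1.28 to 0.01, adjusted p = 0.605) and Axin2 -0.79 (interval -1.61 to 0.026, adjusted p = 0.61). Wnt5a, Fzd5, Sfrp5, Nkd2 and Tcf7l2, each called after MI in 1 genotype, also had interaction p-values that missed the threshold (adjusted p = 0.962, 0.94, 0.729, 0.677 and 0.729). For Ctnnb1 the interval was -0.12 to 0.39.

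The third set compared sham hearts 3 days after surgery with unoperated hearts. In PKM2fl/fl hearts 0 of 34 members were called with limma (background 0.190%) and 0 with edgeR, DESeq2 called 1, and 5 had an unadjusted p under 0.05, or 14.7% beside 8.81% of all tested genes. In PKM2-/- hearts 1 of 34 was called (background 5.14%), edgeR and DESeq2 each called 1, and 10 had an unadjusted p under 0.05, or 29.4% beside 18.9% of all tested genes. That member was Sfrp1, with 282 and 240.1 normalized counts at baseline and 551, 466 and 599.8 after sham, without overlap (log2 fold change 1.04, SE 0.18, adjusted p = 0.00508). Without PKM2-/- baseline replicate 2 the call was lost (0.92 with adjusted p = 0.0611). In PKM2fl/fl hearts Sfrp1 was 281 and 383 at baseline and 528, 574 and 376 after sham (log2 fold change 0.56, SE 0.18, adjusted p = 0.267), with 1 sham library inside the baseline range, and was called without that library, sham replicate 3 (0.75 with adjusted p = 0.0423), with array quality weights and with edgeR without a filter. Sfrp1 was therefore lowest at baseline, intermediate after sham and highest after MI in the PKM2-/- libraries. Several marker lists moved in the same PKM2-/- comparison. Of 7 fibroblast markers 3 were called higher, with sums of 17429 to 19349.6 at baseline and 27837 to 45316 after sham. All 4 tested neutrophil markers were higher (114 to 162 and 896 to 1118), as were 3 of 4 markers of dividing cells (88.0 to 212 and 481 to 799), 1 of 6 macrophage and monocyte markers (3605 to 4973 and 6747 to 8463) and 1 of 4 atrial markers (1636 to 2128 and 3040.3 to 6987), while 1 of 5 mural markers was lower. Their part in the Sfrp1 difference was not tested.

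Dkk3 had the smallest adjusted p of the members in PKM2fl/fl hearts. It stood at 105 and 88.2 at baseline and 452, 289 and 238 after sham, without overlap (log2 fold change 1.70, SE 0.34, adjusted p = 0.0605), and DESeq2 called it (1.76 with adjusted p = 0.000456). The call also appeared without PKM2fl/fl sham replicate 3 (adjusted p = 0.0202), PKM2fl/fl MI replicate 3 (0.0453), PKM2-/- baseline replicate 2 (0.0497) or PKM2-/- sham replicate 1 (0.0451). Dkk3 in PKM2-/- hearts was 119 and 222 and 412, 244 and 209, which overlapped (log2 fold change 0.76, SE 0.34, adjusted p = 0.24). Of the atrial muscle genes, Myl7 stood at 11.0 and 19.9 in PKM2fl/fl baseline and 401, 90.3 and 405 in sham libraries, and Myl4 at 127 and 93.5 and 694, 194 and 663. Over the whole list, 0 of 4 atrial markers were called in PKM2fl/fl hearts, their sums were 2270.3 to 3629.5 at baseline and 2563 to 6726 after sham, and none was at 0 in every library. Whether atrial tissue had a part in the Dkk3 values was not tested. Wnt9b was 26.7 and 43.8 at baseline and 66.4, 69.8 and 62.7 after sham in PKM2fl/fl (log2 fold change 0.93, SE 0.32, adjusted p = 0.308) and 53.6 and 51.3 and 104, 123 and 86.3 in PKM2-/- hearts (log2 fold change 0.97, SE 0.32, adjusted p = 0.0953), where it was called without PKM2-/- MI replicate 2 (adjusted p = 0.0472). Wnt2 was 6.99 and 3.67 at baseline and 16.1, 23.5 and 19.4 after sham in PKM2-/- hearts (log2 fold change 1.74, SE 0.59, adjusted p = 0.109), with at most 36 reads in any of the 16 libraries.

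**Figure D5:**
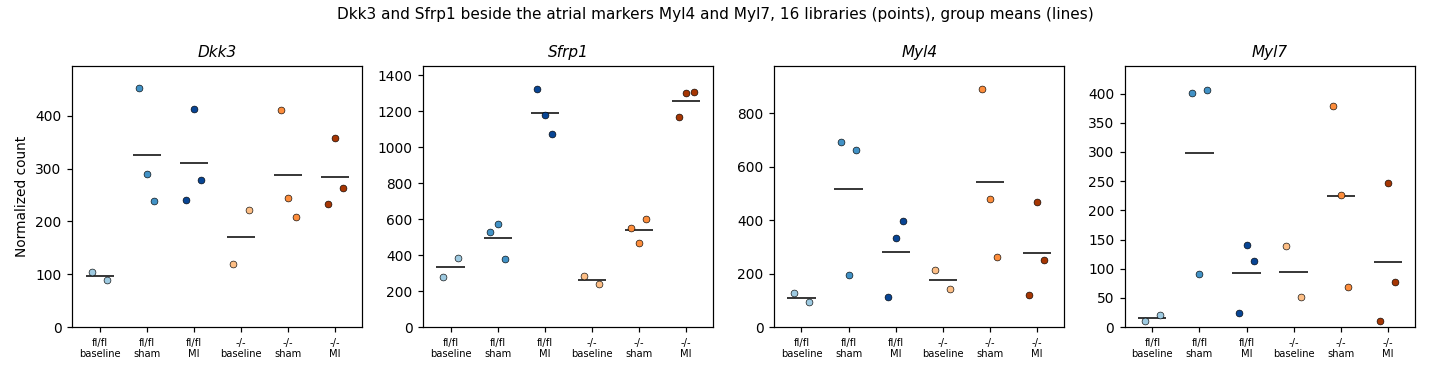
Normalized counts of Dkk3, Sfrp1 and the atrial muscle genes Myl4 and Myl7 in the 16 libraries (points) with group means (lines), each vertical axis starting at 0. Dkk3 is at its lowest in the 2 PKM2fl/fl baseline libraries, where Myl4 and Myl7 are also low, and Sfrp1 is highest in the 6 MI libraries.

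Other genes of the pathway, outside the 51, were read from 6 lists. Their counts after MI stand beside shares of all tested genes of 24.8% higher and 25.3% lower in PKM2fl/fl hearts. In PKM2-/- hearts these shares were 28.7% and 28.1%. In the secretion and release list 4 of 5 genes were in the table and tested, and after MI 1 was higher and 2 were lower in each genotype. Wls, the carrier that takes WNTs to the cell surface, rose by 0.57 ± 0.12 SE, adjusted p = 0.000841 in PKM2fl/fl and 0.65 ± 0.12 SE, adjusted p = 0.000214 in PKM2-/- hearts. The enzymes that inactivate WNTs outside the cell fell, Notum with log2 fold changes of -1.76 and -3.09 (adjusted p = 0.00225 and 1.40e-05) and Trabd2b with -1.10 and -1.48 (adjusted p = 1.87e-05 and 9.14e-07). Porcn, the acyltransferase for WNTs, was not called. Of the agonist and receptor turnover list 10 of 15 were tested, with 2 higher and 3 lower in each genotype. Lgr4 and Lgr6, receptors for R-spondins, fell, with log2 fold changes of -0.77 and -1.27 in PKM2fl/fl and of -0.98 and -1.79 in PKM2-/- hearts (adjusted p = 4.65e-05, 0.000373, 3.51e-06 and 1.26e-05). Adgra2, a WNT7 co-receptor, rose by 1.26 and 1.23 (adjusted p = 7.81e-07 and 6.50e-07).

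Of the other secreted antagonists 5 of 7 were tested, with 1 higher and 2 lower in PKM2fl/fl and 2 higher and 0 lower in PKM2-/- hearts. Frzb, an SFRP relative, went from 139, 146 and 90.7 after sham to 356, 405 and 496 after MI in PKM2fl/fl (log2 fold change 1.75, SE 0.28, adjusted p = 0.0001). Frzb in PKM2-/- hearts went from 167, 91.4 and 161 to 578, 470.0 and 391 (log2 fold change 1.80, SE 0.28, adjusted p = 5.46e-05), so it rose beside Sfrp1 and Sfrp2. Wif1, which binds WNTs directly, fell in PKM2fl/fl hearts (log2 fold change -1.41, SE 0.48, adjusted p = 0.0228) and was not called in PKM2-/- hearts (log2 fold change -1.03, SE 0.48, adjusted p = 0.0801). Of the alternative receptors and planar polarity genes 13 of 14 were tested, with 4 higher and 5 lower in each genotype. Higher was the co-receptor Ptk7 (1.84 and 1.95, adjusted p = 7.77e-07 and 3.31e-07). Lower were the polarity cadherin Celsr2 (-1.21 and -1.83, adjusted p = 0.000259 and 4.74e-06) and the formin Daam1 (-0.67 and -0.95, adjusted p = 6.72e-05 and 2.19e-06).

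All 31 cytoplasmic and nuclear transduction genes were tested, and 8 were higher in each genotype while 11 were lower in PKM2fl/fl and 12 in PKM2-/- hearts. Among all tested genes 24.8% and 28.7% were higher and 25.3% and 28.1% lower in PKM2fl/fl and PKM2-/- hearts. Dvl2, one of the dishevelled proteins that relay the signal from frizzled, fell from 7202, 7406 and 6370.4 after sham to 2169, 2462 and 865 after MI in PKM2fl/fl (log2 fold change -2.07, SE 0.27, adjusted p = 1.95e-05) and from 5686, 6727 and 5513 to 2058, 1508 and 1567 in PKM2-/- hearts (log2 fold change -1.81, SE 0.27, adjusted p = 4.16e-05). Overlap with exons of other genes was examined only for the members, and not for Dvl2 or the other listed genes. Reads of a gene on the other strand could therefore be counted in them. Pygo1, a β-catenin coactivator, fell, with log2 fold changes of -1.46 and -1.90 (adjusted p = 6.32e-05 and 4.10e-06). The corepressor Tle3 rose by 0.73 and 0.72 (adjusted p = 6.88e-06 and 4.48e-06).

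Of 16 textbook target genes of β-catenin and TCF other than those above, 15 were tested, and 10 were higher and 3 lower after MI in each genotype, with medians of 1.10 and 1.19 on the log2 scale. The direction was thus opposite to that of Axin2 for most of the list. Among them Myc rose by 2.71 ± 0.28 SE, adjusted p = 2.23e-06 and 2.11 ± 0.28 SE, adjusted p = 1.26e-05, and Ccn4, also known as Wisp1, by 4.37 ± 0.26 SE, adjusted p = 3.97e-08 and 3.97 ± 0.26 SE, adjusted p = 4.44e-08 in PKM2fl/fl and PKM2-/- hearts. Ccn5, a relative of Ccn4, rose by 1.56 and 1.90 (adjusted p = 3.94e-06 and 4.72e-07), and Fgf9 fell, with -1.64 and -2.44 (adjusted p = 0.000305 and 6.49e-06). Many of these genes are induced by signals other than WNT. Cd44, called higher in PKM2fl/fl alone, ranged from 1795 to 105217 normalized counts and was highest in the 2 PKM2fl/fl MI libraries in which 43.9% and 44.8% of reads lay in ribosomal RNA loci, beside 19.8% in the other one. Its part in that call was not tested, and without it 9 of 14 were higher in PKM2fl/fl and 10 of 14 in PKM2-/- hearts, with 3 lower in each. The genotype comparison after MI called 1 gene lower in the alternative receptor and planar polarity list and 1 higher and 1 lower in the transduction list, while 0 genes of the 6 lists were called between genotypes at baseline or after sham, in both cases with limma. Among all tested genes 0.967% were called after MI. The paper, which tested with DESeq2 and not limma, listed Cd44 as differentially expressed at baseline, higher in PKM2-/- hearts. The 2 tests differ, so the missing limma call does not mean that the counts disagree. The summed target list, Cd44 included, stood at 5338 to 6990 normalized counts in PKM2fl/fl and 66781 to 68623 in PKM2-/- baseline libraries. By the counts printed in the paper, Cd44 alone made up most of the PKM2-/- sums, so they do not describe the other targets. Over the 15 tested targets the median log2 difference at baseline was 0.014. Ribosomal RNA loci held 17.3% to 22.1% of reads in the PKM2fl/fl and 39.8% to 43.9% in the PKM2-/- baseline libraries. The part of these loci in the Cd44 difference was not tested.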

How the data were processed

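RNA-seq of left ventricle was analysed in 16 libraries, each from 1 mouse, in 6 groups taken from the labels. Per the methods and labels, the authors used PRINSEQ for trimming, HISAT2 for alignment (build mm10), featureCounts for gene counts and DESeq2 for size factors. Their versions and the strand setting of the counting are not given in the sources used here, and the NEBNext Ultra II RNA kit named in the methods does not mark strand. The deposited signal values are read counts divided by a library size factor, and 100.0% of them gave whole reads within 0.01 reads, from 20623769 to 71855101 per library. Members and lists were chosen with earlier results of these data known.

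Values were tested as log2(value + 1), so fold changes of low genes are understated, with limma 3.58.1 in R 4.3.3: 1 fit of all 16 libraries, genes with a mean of at least 10, Benjamini-Hochberg adjustment over 20576 genes and a threshold of 0.05. Intervals are 95% limma intervals and cover the spread between mice of these groups. Given in full were the 12 called members with the smallest adjusted p after MI, the 3 smallest in each other comparison, and always Ctnnb1, Axin2, Lef1 and Gsk3b; of each other pathway list at most the 5 genes with the smallest adjusted p after MI, and Frzb, Wif1 and Wls always. Other genes named with values, such as Fzd4, Wnt4 and Tcf7 among members and Pkm, Postn, Tcf21, Cd44, Myl4 and Myl7, were chosen after their values were seen. Alternatives were total count and TMM scaling, a pseudocount of 0.1, no filter, only the groups compared, a replicate block, array weights, leaving out each library, and edgeR 4.0.16 and DESeq2 1.42.0 on the recovered reads. Simulated data for MI against sham in PKM2fl/fl held 20576 genes, of which 100 changed 2-fold and 100 changed 4-fold. There limma recovered 54% of 2-fold and 89% of 4-fold changes. In the real comparison 10299 genes were called, and the adjusted threshold depends on how many genes change. These shares therefore do not give the recovery in the real comparison. Exon-level reads of Pkm were not analysed here. Interval and detection limits for reads cover counting error only.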

Additional observations from a re-analysis of the deposited data

Results flagged for a closer look

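For 3 genes the genotype difference had opposite signs in different conditions, with every PKM2-/- library on one side of every PKM2fl/fl library in one condition and on the other side in the other. The difference between conditions itself was not tested. For Lrp5 the log2 genotype difference after sham minus that at baseline was 0.32. Tcf7l2 had -0.37 for the same pair of conditions. For Dkk2 the genotype difference after MI minus that at baseline was -1.70, since the PKM2-/- libraries were the higher ones at baseline (23.3 and 22.0 against 9.42 and 15.9 normalized counts) and the lower ones after MI (45.4, 71.1 and 69.2 against 105, 98.6 and 135). Lrp5 stood at 1781 and 2058 in PKM2-/- and 2113 and 2276 in PKM2fl/fl baseline libraries, and at 2598, 2237 and 2242 and 2143, 2110.5 and 2205 after sham. Tcf7l2 stood at 2069 and 1970.0 and 1907 and 1736 at baseline, and at 1701, 1747 and 1305 and 1769, 1836 and 1899 after sham. With 2 libraries in each baseline group, such a separation rests on 4 libraries. How many of all tested genes show the same pattern was not counted. The 3 genes therefore cannot be read as a result particular to this pathway.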

How the results depend on the processing

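Sfrp1, Sfrp2, Fzd1, Fzd2 and Dkk2 kept their direction and their call after MI in both genotypes under all 26 alternatives, as did Wnt9a in PKM2fl/fl and Axin2 and Fzd7 in PKM2-/- hearts. The count of 15 members called after MI in PKM2fl/fl hearts became 7 with total count scaling, 9 with only the groups compared and 5 with a 2-fold change required, and 8 to 15 when 1 library was left out, with 8 without sham replicate 1 and 9 without sham replicate 3. In PKM2-/- hearts the count of 18 became 7 with a 2-fold change, and 14 to 20 with 1 library left out. Under total count scaling the median log2 change of all genes was -0.18 in PKM2fl/fl and 0.52 in PKM2-/- hearts. Between genotypes 0 members became 0 to 1 when 1 library was left out at baseline (1 without PKM2-/- replicate 1) and 0 to 1 after MI (1 without PKM2fl/fl replicate 3), and 1 after MI with array weights. For sham against baseline the count of 0 in PKM2fl/fl became 1 with total count scaling, 2 with array weights, 2 with edgeR without a filter, 1 with DESeq2 and 0 to 2 with 1 library left out, the 2 being without sham replicate 3. The count of 1 in PKM2-/- hearts became 3 with edgeR without a filter and 0 to 2 with 1 library left out, 0 being without baseline replicate 2 and 2 without baseline replicate 1, sham replicate 3 or MI replicate 2. The cause was not tested. Apart from the 2-fold setting, the share of all tested genes called under each alternative is not given here. Whether members lost or gained calls more than other genes cannot be read from these counts, nor from those with the replicate block.

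Small differences changed sign. Ctnnb1 after MI in PKM2fl/fl hearts was -0.00156 with TMM and -0.000943 with edgeR without a filter, and ranged from -0.0263 to 0.0583 with 1 library left out. Its genotype difference after MI was -0.0195 with array weights and -0.0110 with edgeR, and ranged from -0.0407 to 0.0308. The Gsk3b genotype difference ranged from -0.0590 to 0.0361 after sham and from -0.00777 to 0.1002 after MI with 1 library left out, and the Sfrp5 baseline difference from -4.07 to 0.0433.

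Replicate numbers did not pair the libraries: the deviations of same-numbered libraries of different groups correlated at a median of -0.027 over 36 pairs. With the replicate block 12 and 17 members were called after MI in PKM2fl/fl and PKM2-/- hearts. Without a filter Wnt8b, at 9.99, 12.3 and 2.94 after sham and 0, 0 and 1.83 after MI in PKM2fl/fl hearts, was also called, as was Dkk4 in PKM2-/- hearts, at 6.43, 5.22 and 2.16 and 0, 1.27 and 0. Of the 17 untested members none had more than 28 reads in a library, so changes in them were hardly detectable at this depth.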
